A study of Mus musculus with 547 samples.

Results

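Cholangiocytes of the mouse fetal liver were examined at embryonic days E15.5 and E17.5, with 36 and 34 single cells. They are 70 of the 529 single cells of the study, 447 of which came straight from embryos. A cell was counted as a member where its title placed it in the EpCAM+ sort of E15.5 or E17.5 and the authors had assigned it the putative type cholangiocyte. The study followed hepatoblasts as they become hepatocytes or cholangiocytes, with single cells from E10.5 to E17.5, bulk libraries, and liver explants treated with TPPB or U0126. The cells used here came from untreated, uncultured whole livers. No genotype, strain or number of embryos is given in the labels.

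Cholangiocytes line the bile ducts. They arise from hepatoblasts, the bipotent progenitors of the fetal liver, next to the portal veins, where they first form a sheet called the ductal plate and later remodel into tubes. Hepatoblasts and fetal hepatocytes make the plasma proteins of the fetus, such as albumin and alpha-fetoprotein, while cholangiocytes build a polarised epithelium with keratins, tight junctions, a basement membrane and a primary cilium. Notch signalling from the portal mesenchyme, the Hippo effector YAP and TGF-beta are known inputs to biliary fate, and Onecut1 and Sox9 are transcription factors of the lineage.

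Each cell was picked by hand after sorting and amplified by Smart-seq2, which reads whole transcripts and carries no molecular identifiers. The set number in the titles splits the E15.5 cholangiocytes into sets 2, 3 and 4, with 18, 8 and 10 cells, and the E17.5 cholangiocytes into sets 1, 3 and 4, with 15, 4 and 15 cells. Cells are not replicates, so each set's reads were added up and the 3 sums of each day served as replicates. The labels leave undefined what a set is, so p-values measure only the spread between sets, which may be technical. Comparison groups were the DLK+ gate cells of the same days, sorted for the hepatoblast surface protein DLK1 and annotated as hepatoblasts or hepatocytes (39 cells in 3 sets at E15.5, 35 cells in 4 sets at E17.5), and the 17 cholangiocytes of E14.5, in 3 sets. Cholangiocytes held 782452 to 2111839 gene reads and 8001 to 9978 detected genes per cell. ERCC spike-in RNAs, added in a fixed amount per cell, took a median of 2.18, 3.68 and 3.11% of the reads in the E15.5 sets and 1.65, 2.56 and 3.45% in the E17.5 sets. Summed over a set, markers of other liver cells were low: erythroid markers reached at most 5.25 CPM (reads of a gene scaled to a common total per library), leukocyte markers 2.33, megakaryocyte markers 1.07, endothelial markers 2.92 and mesenchymal markers 13.7. The mesothelial list reached 42.0 CPM, most of it from Gpm6a, with reads in 17 and 13 cells, while the mesothelial genes Msln and Wt1 were at 0. Upk3b, a further mesothelial gene, had no read at E15.5 and a mean of 2.49 normalised CPM at E17.5.

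The biliary label was checked against Spp1, Sox9, Epcam, Krt7, Krt19 and Spon1. At least 4 of the 6 were at 10 CPM or more in 29 of 36 cells at E15.5 and in 30 of 34 at E17.5. All 6 were at that level in 16 and 17 cells. Only 3 cells, all of E15.5, had no more than 2. The authors' annotation may rest on these same genes, and EpCAM and DLK1 were the sort proteins, so their difference between the gates describes the cells and is not independent evidence.

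Levels between genes are compared in TPM, a level scaled to a common total that allows for transcript length. Spp1 (GRCm38 5:104435118-104441050), which encodes the secreted phosphoprotein osteopontin, was the most abundant and the most uneven of the markers. It stood at 2850, 6523 and 378 TPM in the E15.5 sets 2, 3 and 4 and at 9399, 7781 and 12671 TPM in the E17.5 sets 1, 3 and 4. Every E17.5 set was above every E15.5 set, but the change on the log2 scale, 1.68, did not pass the test across all genes (edgeR quasi-likelihood, Benjamini-Hochberg adjusted p = 0.60). Sox9 (11:112782224-112787760), a transcription factor of the ductal plate, stood at 253, 417 and 244 TPM and then at 212, 280 and 261 TPM. Epcam (17:87635979-87651129), an epithelial adhesion protein, stood at 324, 503 and 287 TPM and then at 505, 620 and 503 TPM. The Sox9 sets of the 2 days overlapped. The Epcam sets met at 503 TPM, and in normalised CPM every E17.5 set was above every E15.5 set, without passing the test (log2 change 0.54, edgeR adjusted p = 1.00).

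Spon1 (7:113765998-114043370), a matrix protein also called F-spondin, ran from 96.5 to 178 TPM over the 6 sets. The duct keratins were far less abundant. Krt7 (15:101411043-101430313) ran from 23.997 to 66.4 TPM. Krt19 (11:100140810-100148665) ran from 19.96 to 166 TPM, with the highest value in the E17.5 set of 4 cells. In the DLK+ sums none of the 6 markers exceeded 4.81 TPM. Krt19 had no read in any of the 7 DLK+ sums, so it was at least 173-fold higher in cholangiocytes, taking 3 reads per sum as the upper limit behind a count of 0.

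The same markers were uneven from cell to cell. Reads of Spp1 were found in 88.9% of E15.5 and 100% of E17.5 cholangiocytes, also after each cell was thinned to 700000 reads. In DLK+ cells the shares were 33.3 and 62.9%, or 25.6 and 40% after thinning, at a few reads per cell. Krt7 had reads in 77.8 and 88.2% of cholangiocytes against 38.5 and 25.7% of DLK+ cells, and after thinning in 77.8 and 88.2% against 28.2 and 22.9%. Krt19 had reads in 52.8 and 61.8% of cholangiocytes (52.8 and 58.8% after thinning) and in no DLK+ cell. Epcam had reads in every cholangiocyte. Sox9 had reads in 97.2 and 100% and Spon1 in 97.2 and 97.1% of cholangiocytes, with or without thinning, against 15.4 and 40% of DLK+ cells for Sox9 and 5.13 and 0% for Spon1 (12.8 and 34.3%, and 5.13 and 0%, after thinning).

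In CPM per cell, Spp1 ran from 0 through a median of 372 to 11863 at E15.5 and from 3.47 through 7590 to 38339 at E17.5. At E15.5, 8 of 36 cells were under 10 CPM and 15 were at 1000 CPM or more. At E17.5, 3 of 34 were under 10 and 28 were at 1000 or more. Spp1 was thus close to absent in some cells of both days and among the leading transcripts in others. Epcam was more even, from 13.4 to 1216 CPM and from 170 to 1148 CPM. Krt7 ran from 0 through 48.9 to 624 CPM and from 0 through 68.0 to 346 CPM.

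**Figure D1:**
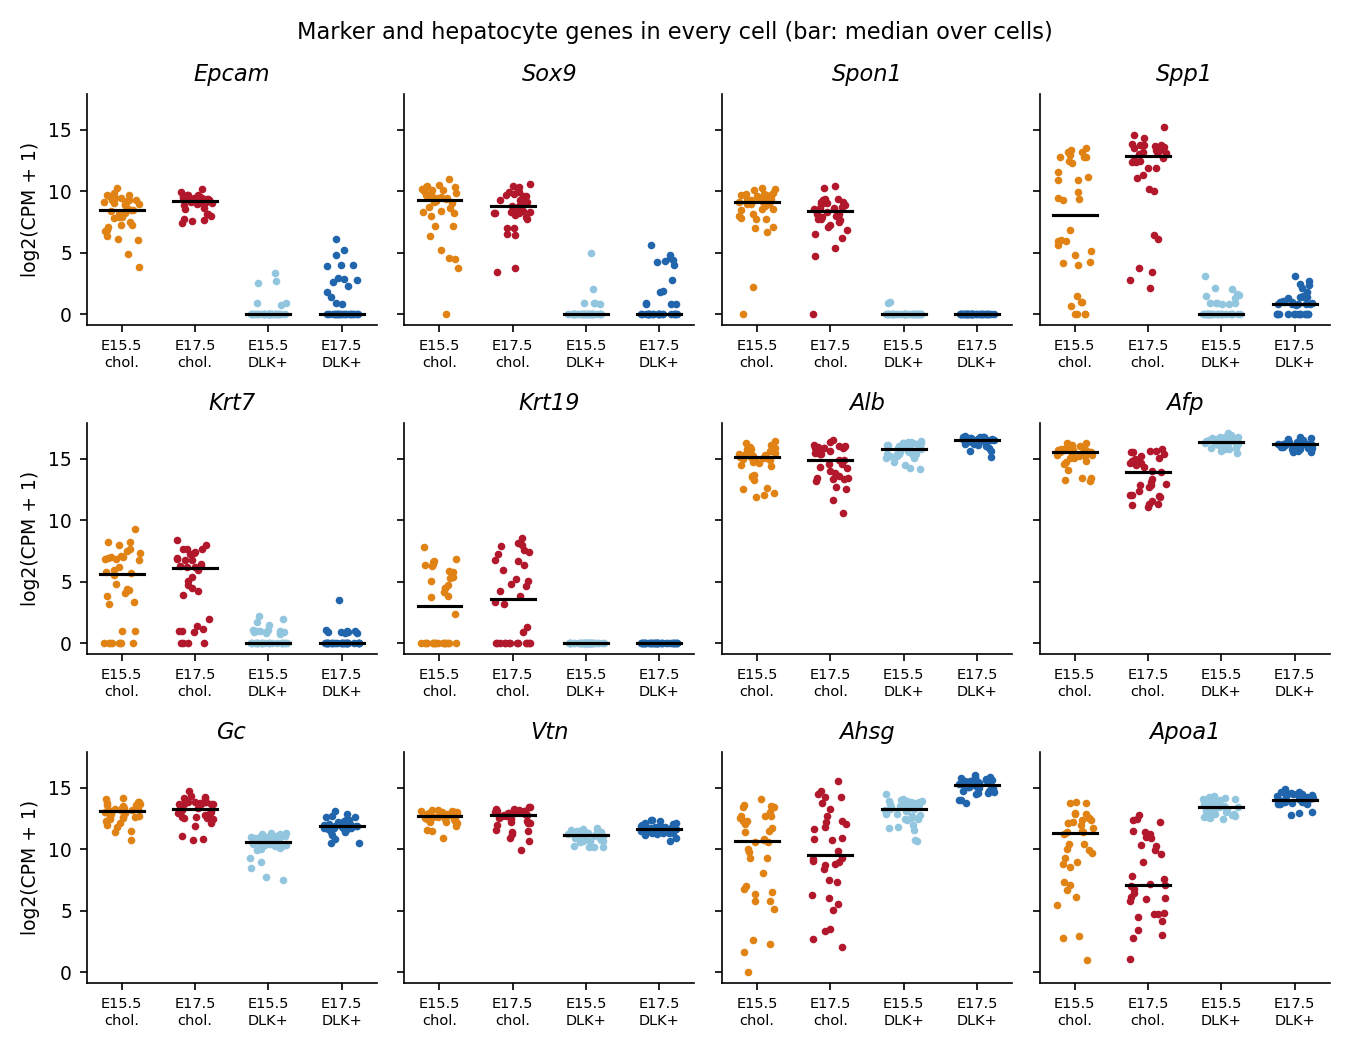
Level of 12 genes in each single cell, as log2(CPM + 1), for E15.5 and E17.5 cholangiocytes (chol.) and DLK+ gate cells; a point is a cell and a bar the median over cells. Spp1, Ahsg and Apoa1 span most of the axis among cholangiocytes, while Gc and Vtn are narrower and lie above most DLK+ cells on this scale of library totals. In TMM-normalised CPM at E17.5, Vtn was at 95.9% of the DLK+ level and the Gc sets overlapped.

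Cholangiocytes and DLK+ cells were next compared across all genes, with both days weighted equally. Of 16838 genes tested, 5247 (31.2%) were called, 2849 (16.9%) higher and 2398 (14.2%) lower in cholangiocytes. The 6 cholangiocyte sets lay wholly above the 7 DLK+ sets for 1191 genes (7.07%) and wholly below for 1222 (7.26%). The split depends on the scaling. With library totals in place of the composition factors of TMM, 6748 were higher and 1163 lower, and the median change of all genes moved from 0.19 to 0.86 on the log2 scale. The named genes below kept their direction under both scalings unless the other value is given.

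Of 16 transcription factors of the biliary lineage tested, 15 were higher and none lower, with a median log2 difference of 3.37 (0.19 over all genes). Hes1, a repressor induced by Notch, stood at 256 ± 118 TPM (SD, n = 6 sets) and was 3.07 ± 0.37 (SE) higher on the log2 scale (edgeR quasi-likelihood, adjusted p = 7.3e-08). Tead2, a DNA-binding partner of YAP, stood at 63.7 ± 12.0 TPM, 3.92 higher. Onecut1 was at 30.3 ± 9.56 TPM and Sox4 at 10.47 ± 2.88 TPM. Sox4 had no read in the DLK+ sums and was at least 79.7-fold higher.

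The epithelial structure genes followed. Among tight junction genes 14 of 18 were higher and none lower (median 1.12). The claudins, which seal the space between cells, led them: Cldn6 at 829.3 ± 356 TPM, Cldn7 at 300 ± 71.6 TPM and Cldn3 at 280 ± 139 TPM, each at a few TPM or less in DLK+ cells. Of 6 keratin genes 4 were higher and 1 lower. Krt8 and Krt18, a keratin pair shared by hepatocytes and cholangiocytes, were by far the most abundant, at 2156 ± 549 and 1402 ± 155 TPM, and were 1.88 and 1.22 higher on the log2 scale. The lower keratin was Krt20, with a log2 difference of -2.45. Adherens, gap and desmosome genes split, with 9 of 13 higher and 3 lower: Cdh1, which encodes E-cadherin, was 1.20 higher, and the gap junction gene Gjb1, at 506 ± 66.7 TPM, had a log2 difference of -1.18.

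Apical membrane genes were higher in 6 and lower in 2 of 10 tested. Cd24a, a surface glycoprotein of duct cells, stood at 547 ± 171 TPM, 9.11 higher on the log2 scale, and Pdzk1ip1, a small membrane protein, at 293 ± 93.0 TPM. Basement membrane genes were higher in 9 and lower in 1 of 13 tested. Agrn, the heparan sulfate proteoglycan agrin, was at 47.5 ± 15.6 TPM, and Ddr1, a collagen receptor, at 69.5 ± 17.1 TPM. Integrin and receptor genes were higher in 6 of 12 and lower in none.

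Genes of the primary cilium and of polycystic disease were higher in 9 and lower in 1 of 17 tested. Bicc1, an RNA-binding protein, stood at 82.1 ± 24.2 TPM, Kif3a, a motor for transport along the cilium, at 62.6 ± 11.4 TPM, and Pkhd1, which encodes fibrocystin, at 23.3 ± 7.94 TPM. Their log2 differences from DLK+ cells were 4.28, 3.14 and 4.84. Of 36 and 34 cholangiocytes, Bicc1 was at 10 CPM or more in 36 and 33, Kif3a in 35 and 34 and Pkhd1 in 34 and 33.

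Genes of duct secretion were mostly low. Of 19 listed, 6 reached 10 TPM on average, and of 13 tested, 6 were higher and 2 lower than in DLK+ cells. Atp1b1 and Fxyd2, subunits of the sodium pump, stood at 262 ± 68.6 and 151 ± 110 TPM. Sctr, the receptor for secretin, the hormone that drives bicarbonate secretion, stood at 8.25 ± 7.22 TPM with reads in 10 and 14 cells, and had none in the DLK+ sums. The chloride channel Cftr and the water channel Aqp5 had no reads. The water channel Aqp8, known from hepatocytes, stood at 2.61 ± 3.50 TPM against 61.1 and 316 TPM in DLK+ cells of E15.5 and E17.5.

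In the Notch list 7 were higher and 1 lower of 13 tested. The receptor Notch2 stood at 40.9 ± 6.68 TPM and its ligand Jag1 at 26.8 ± 9.76 TPM, whereas Notch1 was at 0.0905 TPM and lower than in DLK+ cells by a log2 difference of -3.39. In the YAP list 11 of 16 were higher and none lower. Cyr61 and Ctgf, matricellular proteins induced by YAP, stood at 161 ± 63.1 and 102 ± 48.3 TPM, with Ctgf at 0.0414 and 0.0509 TPM in DLK+ cells of E15.5 and E17.5. TGF-beta and BMP genes were higher in 9 of 17 and lower in none, led by the transcriptional inhibitor Id2 at 714 ± 179 TPM. The call of Id2 (log2 difference 0.59, edgeR adjusted p = 0.0098) was lost without the E15.5 DLK+ set 3 (adjusted p = 0.0512, and 5.3e-07 to 0.0592 over all alternatives). FGF, EGF and MAPK genes were higher in 8 and lower in 2 of 17, with the receptors Fgfr3 at 90.04 ± 44.3 and Fgfr2 at 63.3 TPM. In the Wnt list 3 were higher and 2 lower of 17. Lgr4, a receptor for R-spondin, was at 50.9 TPM and its relative Lgr5 at 0.267 TPM.

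Hepatocyte transcripts were abundant in cholangiocytes. The highest TPM values in the 6 sets were Alb (32008 ± 10599), Afp (28077 ± 15173), Apoe (10213 ± 684), Gc (10001 ± 2262), Serpina6 (9996 ± 7330), Vtn (6788 ± 442) and Ambp (6708 ± 708), ahead of Spp1. All are made and secreted by the fetal liver: albumin, alpha-fetoprotein, apolipoprotein E, the vitamin D binding protein, the corticosteroid binding globulin, vitronectin and the precursor of alpha-1-microglobulin. A list of 34 plasma protein genes took 16.3, 11.7 and 20.1% of gene reads in the E15.5 sets 2, 3 and 4 and 13.3, 9.47 and 11.9% in the E17.5 sets 1, 3 and 4. The days overlapped. Their means were 16.1 ± 4.24 and 11.53 ± 1.91% (SD, n = 3 sets each), and a two-sided exact permutation test gave p = 0.3 (0.386 adjusted over 9 such tests), where the smallest p that 3 against 3 sets allow is 0.1. The difference of -4.52 percentage points shrank to -1.60 without Alb and Afp.

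In the DLK+ cells the same share went from 24.2 ± 0.756% (n = 3 sets) to 35.01 ± 1.40% (n = 4 sets). Those groups did not overlap, and the exact permutation p, 0.0571, is the smallest that 3 against 4 sets allow (0.171 adjusted over 9 tests). Cholangiocytes were below the DLK+ cells by 8.15 percentage points at E15.5 and by 23.5 at E17.5. All cholangiocyte sets lay below all DLK+ sets of their day, with exact p = 0.1 and 0.0571, again the smallest values these numbers of sets allow. Metabolic enzymes took 0.638 ± 0.117 and 0.621 ± 0.127% of cholangiocyte reads (n = 3 sets each), an exact permutation p of 0.9.

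Single cells covered the whole range. At E15.5 the plasma protein share ran from 3.25 through a median of 16.98 to 29.2% of a cell's reads, and at E17.5 from 2.06 through 10.9 to 28.8%. In DLK+ cells the lowest, median and highest were 12.2, 24.5 and 36.2% at E15.5 and 19.4, 35.6 and 45.8% at E17.5. Of the E15.5 cholangiocytes, 25 of 36 (69.4%, exact 95% binomial interval 51.9 to 83.7%) were at or above the lowest DLK+ cell of that day. At E17.5 8 of 34 were (23.5%, 10.7 to 41.2%). The intervals cover counting of cells only. Even the cells with the smallest share carried many of these transcripts: every cholangiocyte had at least 24 of the 34 genes at 10 CPM or more, with medians of 32 and 31.5.

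**Figure D2:**
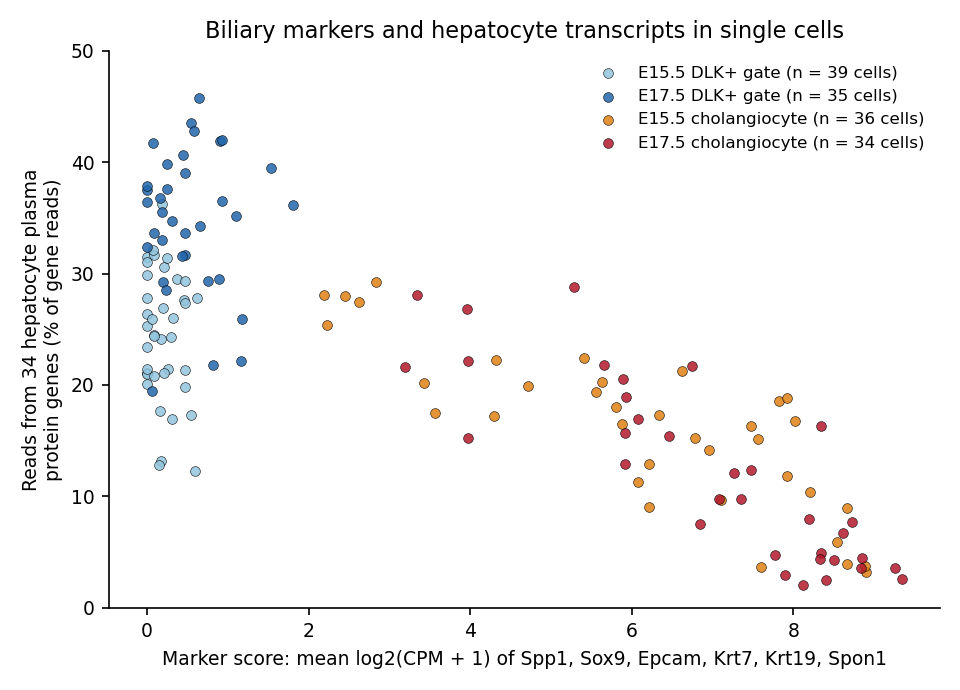
Percent of a cell's gene reads from 34 hepatocyte plasma protein genes against the mean log2(TPM + 1) of the 6 biliary markers (the axis label names CPM). A point is a cell of E15.5 or E17.5. Cholangiocytes run from 29.2% down to 2.06% as the marker score rises, and DLK+ cells lie at low scores between 12.2 and 45.8%.

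The cholangiocytes of highest plasma protein share still carried biliary markers. The 6 markers took 0.0221 to 1.44% of a cell's reads at E15.5 and 0.0385 to 3.97% at E17.5, and at most 0.00914% in a DLK+ cell. No cholangiocyte was therefore as low as any DLK+ cell. The sort and the annotation may have fixed this separation in advance, so it describes the cells and is no independent evidence. The 3 EpCAM+ cells of these sets that the authors did not annotate as cholangiocytes had 20.7, 32.5 and 34.2% of reads from plasma protein genes and 1, 1 and 2 markers at 10 CPM or more. The 6 markers took 0.0116, 0.00177 and 0.0101% of their reads, so the first and last of them also lay above every DLK+ cell. Doublets were not called. Each cell was picked by hand.

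The difference from DLK+ cells was graded from gene to gene. For the 63 listed hepatocyte genes with a mean of 100 normalised CPM or more in the DLK+ sums, the cholangiocyte mean was expressed as a percent of the DLK+ mean, both as TMM-normalised CPM. The median was 22.8%, and it was 40.9% at E15.5 and 15.3% at E17.5. Plasma protein genes had a higher median than enzymes, 27.8% over 33 genes against 14.7% over 21. Transporters were at 9.92% over 6 genes and transcription factors at 43.9% over 3. On library totals, the scale of the read percentages above, the overall median was 39.3%, with 45.3% for plasma proteins, 23.1% for enzymes, 15.7% for transporters and 68.1% for transcription factors. The order of the 4 groups was the same on both scales.

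Over both days together Gc stood highest, at 196% of the DLK+ level (351% on library totals), while at E17.5 alone Serpina6 (144%) was above Gc (136%). In normalised CPM Gc was 8026, 4898 and 10465 in the E15.5 cholangiocyte sets and 11589, 9288 and 8449 in the E17.5 sets. The DLK+ sets were at 1611, 1726 and 2089 at E15.5 and at 6746, 9682, 6192 and 6037 at E17.5. The groups were apart at E15.5 and overlapped at E17.5. Over both days Gc was 1.28 higher on the log2 scale (edgeR adjusted p = 0.0047). Vtn followed at 135%, a log2 difference of 0.54 (edgeR adjusted p = 0.019) that was lost without the E15.5 DLK+ set 1 or 3 or the E17.5 cholangiocyte set 1 (adjusted p = 0.0698, 0.0535 and 0.0542, and from 4.9e-08 over all alternatives). Of the 34 plasma protein genes these 2 were called higher and 27 lower. The sign of Apoe depends on the scaling, with a log2 difference of -0.34 under TMM (adjusted p = 0.061) and 0.36 on library totals (adjusted p = 0.008, edgeR).

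Other genes near or above the DLK+ level were Aldh1b1 (155%), an aldehyde dehydrogenase of mitochondria, the amino acid transporter Slc38a4 (123%), the transcription factor Prox1 (116%), Serpina6 (115%) and the glucuronosyltransferase Ugt2b34 (106%). At the other end were Cps1 (2.87%), the entry enzyme of the urea cycle, the bile salt export pump Abcb11 (0.895%), the glycogen synthase Gys2 (0.778%), the fatty acid transporter Slc27a5 (0.741%), and the cytochromes Cyp2e1 (0.575%) and Cyp3a11 (0.0544%). These values pool the days, and Cyp2e1 was at 36.8% at E15.5 and 0.260% at E17.5. Its mean over both days was 0.597 normalised CPM in cholangiocytes and 104 in DLK+ cells. The E15.5 ratio rests on low levels in both groups. Enzymes were lower in 18 and higher in 1 of 26 tested, the higher one being Aldh1a1, a retinal dehydrogenase. Transporters were lower in 9 and higher in 1 of 11 (Slc38a4, by 0.29 on the log2 scale, a call lost without any one of the E15.5 DLK+ sets, the E15.5 cholangiocyte sets 2 and 4, the E17.5 DLK+ set 3 and the E17.5 cholangiocyte sets 1 and 4), and hepatocyte transcription factors lower in 8 of 15 and higher in none. On library totals that last count was 5 lower and 4 higher. Members of the Serpina1 and Ugt2b families are near-identical copies whose reads the counting could split, so their single values are uncertain.

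**Figure D3:**
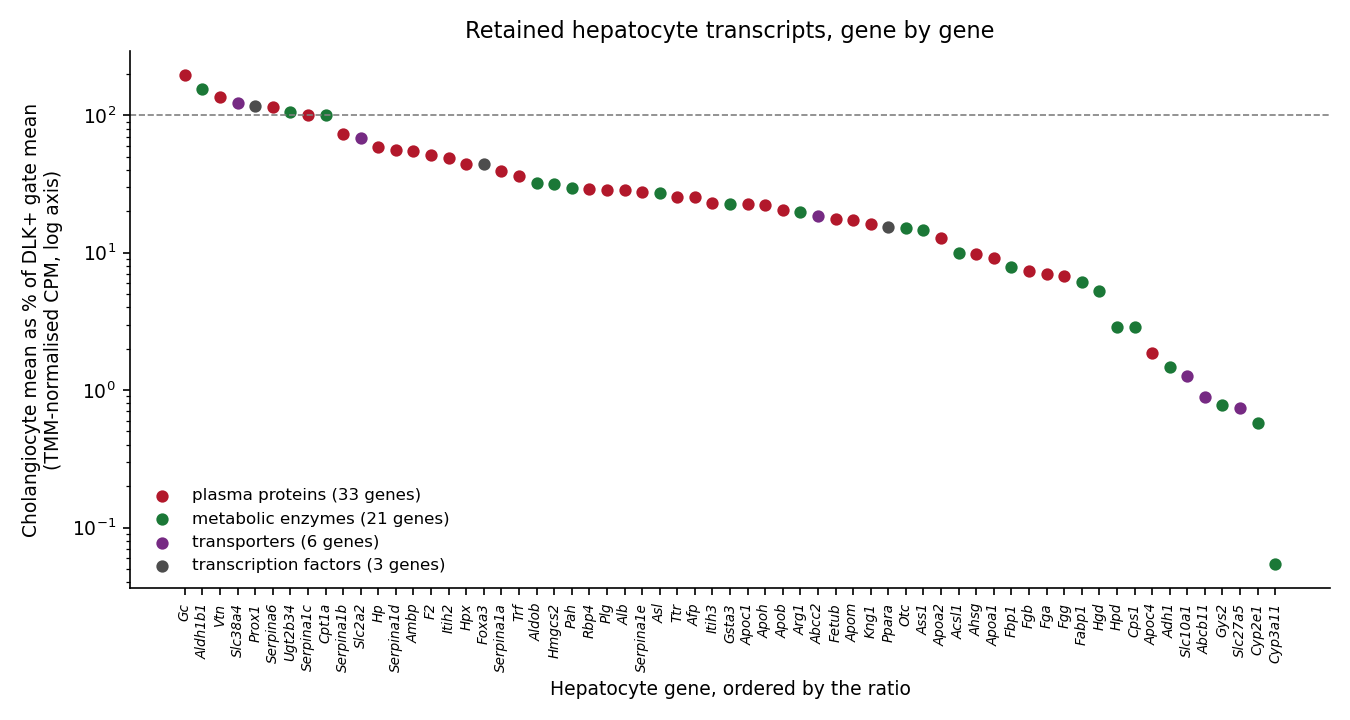
Mean of the 6 cholangiocyte sets as a percent of the mean of the 7 DLK+ sets (TMM-normalised CPM, log axis) for 63 hepatocyte genes ordered by that ratio; colours mark plasma proteins, enzymes, transporters and transcription factors, and the dashed line is equality. The genes run from Gc at 196% to Cyp3a11 at 0.0544%.

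Between E15.5 and E17.5, 75 of 16838 genes (0.445%) were called in the cholangiocytes, of which 57 fell (0.339%) and 18 rose (0.107%). Among the falls were Serpina6, Dlk1, Afp and 4 apolipoprotein genes. Most of these calls draw on the spread pooled over all embryo sums: with only the 6 cholangiocyte sums in the fit, 12 genes were called, 10 rising and 2 falling, and 6 of them were among the 75. Serpina6, Dlk1 and Tapbp were called under every alternative, with adjusted p of at most 0.0331, 0.0344 and 0.0371.

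Serpina6 (12:103646630-103657212) stood at 13634, 11972 and 13172 normalised CPM in the E15.5 sets and at 3717, 2204 and 1856 in the E17.5 sets. The days were far apart, and the log2 change was -2.32 ± 0.26 (SE; edgeR adjusted p = 2.1e-06). The DLK+ sets stood at 11261, 13322 and 10509 at E15.5 and at 2195, 2015, 1685 and 1315 at E17.5, also apart. The change in cholangiocytes minus that in DLK+ cells was 0.38 (edgeR adjusted p = 0.81). Dlk1 (12:109452823-109463336), the sort protein of the DLK+ gate and a hepatoblast gene, stood at 443, 276 and 453 and then at 93.9, 43.6 and 58.6 normalised CPM in the cholangiocytes. Its change was -2.57 ± 0.37 (edgeR adjusted p = 0.00029), and every E17.5 set was below every E15.5 set.

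Apom, Apoc2, Apoa2 and Apoa1, genes of apolipoproteins, fell. Apom stood at 800, 391 and 910 and then at 177, 104 and 176 normalised CPM (-2.20 ± 0.24). Apoc2 stood at 541, 217 and 334 and then at 64.7, 62.8 and 103 (-2.24 ± 0.32). Apoa2 stood at 1781, 989 and 1681 and then at 561, 298 and 549 (-1.66 ± 0.24). Their edgeR adjusted p were at most 0.00031, and with only the cholangiocyte sums in the fit 0.0806, 0.0858 and 0.134, the highest over their alternatives. Apoa1, the main protein of high-density lipoprotein, stood at 3262, 2020 and 4724 and then at 1231, 402 and 1073, a change of -1.89 ± 0.38 (edgeR adjusted p = 0.010) that was lost without the E15.5 set 4 or the E17.5 set 3 (adjusted p = 0.107 and 0.104, and 0.00050 to 0.256 over all alternatives). Afp changed by -1.34 ± 0.22 (edgeR adjusted p = 0.0015, and up to 0.301 over all alternatives). Alb did not pass: its sets stood at 30366, 17156 and 53356 and then at 32352, 22675 and 35842 and overlapped, with a log2 change of -0.15. Gc (0.33), Vtn (-0.09), Apoe (0.00) and Ttr (-0.24) did not pass either.

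Of 34 plasma protein genes 5 fell and none rose, with a median log2 change of -0.26 against 0 over all genes. Outside the plasma proteins, Acss1, a mitochondrial acetyl-CoA synthetase, stood at 24.98, 32.7 and 36.5 and then at 2.36, 6.16 and 3.04 normalised CPM (-3.16 ± 0.29). Its adjusted p reached 0.122 over all edgeR and DESeq2 alternatives. Krt20 stood at 33.3, 34.6 and 39.0 and then at 6.47, 2.37 and 12.8 (-2.22, edgeR adjusted p = 0.010), and this call was lost without the E17.5 set 1 or 3 (adjusted p = 0.0705 and 0.0814, and 8.4e-05 to 0.293 over all alternatives). Of 14 fetal hepatoblast genes 1, Dlk1, fell and none rose. The growth factor gene Igf2 had a change of -0.71 (edgeR adjusted p = 0.21).

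Among the rises were Tapbp, Irgm2, Iigp1 and Ghr. None of them was called in the interaction with the DLK+ change given below, so the rises are not shown to be particular to cholangiocytes. Irgm2, Iigp1 and Ghr were called lower in cholangiocytes than in DLK+ cells over both days, though not under every alternative. Tapbp, the tapasin that loads peptides onto MHC class I, stood at 31.0, 32.7 and 35.7 and then at 88.1, 102 and 98.8 normalised CPM, a change of 1.54 ± 0.28 (edgeR adjusted p = 0.0048). Irgm2 and Iigp1 encode GTPases induced by interferon. Irgm2 stood at 8.31, 7.83 and 10.4 and then at 52.2, 23.9 and 62.2 (2.39 ± 0.48, edgeR adjusted p = 0.010), and was lost without the E15.5 set 2 or 3 or the E17.5 set 4 (adjusted p = 0.0707, 0.0585 and 0.0577, and 6.0e-05 to 0.122 over all alternatives). Iigp1 had no read at E15.5 and stood at 28.3, 15.9 and 30.8 at E17.5, at least 92.9-fold higher, and DESeq2 did not call it (adjusted p = 0.587, where all alternatives ran from 0.00011 to that value). The growth hormone receptor Ghr stood at 122, 100 and 114 and then at 215, 254 and 255 (1.11 ± 0.21, edgeR adjusted p = 0.0077, and up to 0.0797 over all alternatives).

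**Figure D4:**
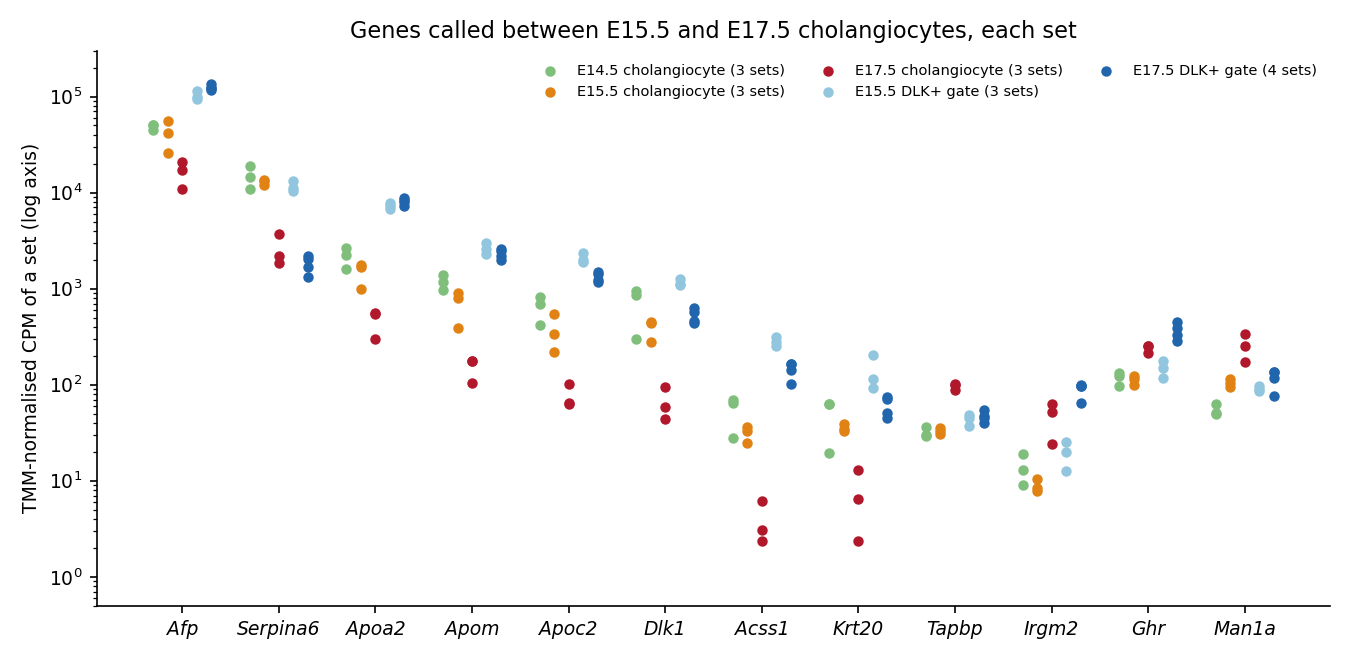
TMM-normalised CPM of each set (log axis) for 12 genes called between E15.5 and E17.5 cholangiocytes, with E14.5 cholangiocytes and DLK+ gate cells beside them; a point is a set. Tapbp, Irgm2, Ghr and Man1a are higher at E17.5 and the other 8 are lower.

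None of the biliary structure or signalling lists held a gene called between the days, apart from Krt20 among the keratins. At the 0.445% called over all genes, lists of this size would hold few calls. Several duct genes were higher in all 3 E17.5 sets without passing the test. The bicarbonate transporter Slc4a4 stood at 6.25, 2.97 and 3.05 and then at 26.8, 32.4 and 20.4 normalised CPM (edgeR adjusted p = 0.24). Carbonic anhydrase Car2 stood at 2.98, 2.58 and 11.52 and then at 26.7, 13.97 and 30.5 (edgeR adjusted p = 0.53). The sodium pump subunit Fxyd2 was lower in all E17.5 sets, at 74.6, 90.6 and 42.1 and then at 22.8, 14.7 and 26.1 (edgeR adjusted p = 0.81). Over all genes 942 (5.59%) were higher and 999 (5.93%) lower without overlap of the sets, so separation alone is common. The 6 markers together took 0.404, 0.767 and 0.167% of reads at E15.5 and 0.946, 0.881 and 1.18% at E17.5, with an exact permutation p of 0.1 (n = 3 sets each, 0.18 adjusted over 9 tests).

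Whether cholangiocytes and DLK+ cells changed differently over the 2 days was tested as an interaction. It called 200 genes (1.19%), 107 in favour of cholangiocytes (0.635%) and 93 in favour of DLK+ cells (0.552%). On library totals the counts were 642 and 43, with the median of all genes moved from 0 to 0.52. The main count rests in part on single sets: it was 85 without the E15.5 DLK+ set 1, 97 without the E15.5 DLK+ set 3, 96 without the E15.5 cholangiocyte set 4 and 118 without the E17.5 cholangiocyte set 3. With the set number within day as a replicate block it was 38. Plasma protein genes were called in 10 of 34 cases, all in favour of DLK+ cells. Apoa1 fell in cholangiocytes and stood at 12295, 15358 and 14487 and then at 26977, 32469, 34056 and 34601 normalised CPM in DLK+ cells, a difference of -3.07 (edgeR adjusted p = 0.0013). Afp had a difference of -1.62, and the fibrinogen chains Fga, Fgb and Fgg, which form blood clots, of -2.77, -2.95 and -3.01.

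Cell cycle genes went the other way, with 4 of 20 in favour of cholangiocytes and none against. These were the mitotic kinase Cdk1 (3.01) and the DNA helicase subunits Mcm2 (1.89), Mcm3 (2.02) and Mcm5 (2.85). The call of Mcm3 (edgeR adjusted p = 0.028) was lost without any one set (adjusted p up to 0.102) other than the E15.5 cholangiocyte set 3, the E17.5 cholangiocyte sets 3 and 4 and the E17.5 DLK+ sets 1 and 2. Ccnd2 (6:127125162-127152193), which encodes cyclin D2, a driver of entry into the cycle that is on no cell cycle list used here, stood at 159, 321 and 116 and then at 424, 357 and 450 normalised CPM in cholangiocytes. In DLK+ cells it stood at 7.92, 13.4 and 12.9 and then at 0.295, 0.394, 0 and 0.282, an interaction of 6.46 ± 1.38 (edgeR adjusted p = 0.014). Flna, the actin cross-linker filamin A, stood at 68.5, 105 and 139 and then at 101, 95.2 and 170 in cholangiocytes and at 0.563 or less in E17.5 DLK+ sets. Krt8 had an interaction of 1.14 ± 0.25 (edgeR adjusted p = 0.016), which was lost without the E15.5 DLK+ set 3, the E15.5 cholangiocyte set 4 or the E17.5 cholangiocyte set 3 (adjusted p = 0.0579, 0.0606 and 0.0834, and 0.00012 to 0.161 over all alternatives).

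The share of cells with at least 10 of the 20 cell cycle genes at 10 CPM or more was 38.9, 25 and 30% in the E15.5 cholangiocyte sets (7 of 18, 2 of 8 and 3 of 10 cells) and 20, 50 and 20% in the E17.5 sets (3 of 15, 2 of 4 and 3 of 15). The days overlapped, with a two-sided exact permutation p of 1 (n = 3 sets each) and a difference of -1.30 percentage points. Its sign turned to 2.5 without the E15.5 set 2 and to 3.70 without the E17.5 set 1 or 4. In DLK+ cells the share was 58.3, 37.5 and 52.6% and then 21.4, 0, 0 and 0%, without overlap (exact permutation p = 0.0571, n = 3 and 4 sets). At E17.5 the cholangiocyte and DLK+ sets overlapped, and their difference gave an exact permutation p of 0.171 (n = 3 and 4 sets).

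Against the E14.5 cholangiocytes, 379 genes (2.25%) were called, 113 higher (0.671%) and 266 lower (1.58%) at E15.5 and E17.5, and without overlap of the sets 469 (2.79%) were higher and 428 (2.54%) lower. The count was 252 without the E15.5 set 3 and 21 with only the cholangiocyte sums in the fit. The FGF receptor gene Fgfr3 stood at 55.4, 36.3 and 50.6 normalised CPM at E14.5, at 103, 118 and 136 at E15.5 and at 162, 304 and 268 at E17.5. These 3 days did not overlap, and the later days were 1.85 higher on the log2 scale (edgeR adjusted p = 0.0011, and at most 0.0232 over the alternatives). Lgr4 was 1.04 higher (edgeR adjusted p = 0.0052, and up to 0.0836 over all alternatives). Id1, a BMP target, stood at 71.6, 161 and 41.8, then at 30.8, 26.4 and 22.2, then at 9.83, 2.84 and 18.2, a log2 difference of -2.45 (edgeR adjusted p = 0.0052) that was lost without the E14.5 set 2 (adjusted p = 0.103, the highest over its alternatives). Dlk1 was lower by a log2 difference of -2.13, and of the plasma protein genes 6 were lower and none higher.

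The spread between cells of a set was taken over 3154 genes at 50 CPM or more, on log2(CPM + 1). Among the 15 genes farthest above the trend of spread against level were Spp1, Ccnd2, Ahsg, Hes1, Apoa1, Apoa2, Serpind1, Kng2, Hp, Arg1, Serpinc1, Itih4, Ugt2b36 and Timd2. Spp1 had a within-set SD of 4.37 and 3.65 on that log2 scale, against a median gene at 0.987 and 1.04. Of the genes named, Spp1, Ccnd2 and Hes1 were called higher in cholangiocytes than in DLK+ cells and 8 were called lower, while Hp, Kng2 and Ugt2b36 were not called. Apoa1 ran from 1.05 through a median of 2585 to 14578 CPM at E15.5 and from 1.10 through 140 to 6952 CPM at E17.5. Ahsg, which encodes fetuin-A, ran from 0 through 1657 to 18036 CPM and from 3.07 through 781 to 48111 CPM. Gc was in contrast within 1767 to 18204 and 1739 to 27188 CPM, and Vtn within 1947 to 9716 and 995 to 11237 CPM, so these 2 genes were present in every cell.

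The uneven genes moved together. Over 70 cells with set means removed, Apoa1 had a Pearson r of 0.92 with Ahsg, 0.92 with Serpinc1, 0.90 with Alb, 0.88 with Afp, 0.73 with Gc and 0.70 with Vtn. It had an r of -0.67 with Epcam, -0.65 with Krt7, -0.65 with Krt19, -0.54 with Spp1, -0.42 with Sox9 and -0.31 with Spon1. Spp1 had an r of 0.65 with Epcam, 0.55 with Krt19, 0.53 with Krt7, 0.49 with Spon1 and 0.47 with Sox9. Hes1 had an r of -0.27 with Apoa1, close to that of Spon1, and of 0.05 with Spp1, below that of every other marker named here. What the cells of a set have in common is not given in the labels, and all values share a total per cell. These figures therefore describe the cells and carry no p.

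**Figure D5:**
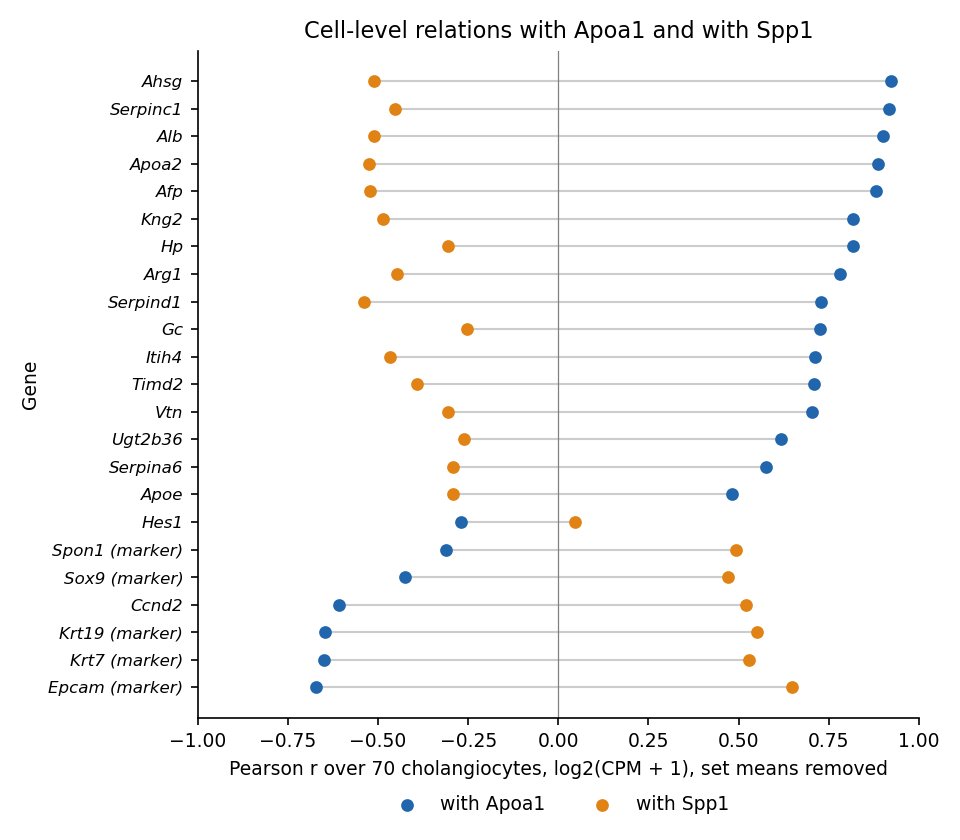
Pearson r over 70 cholangiocytes of each gene with Apoa1 (blue) and with Spp1 (orange), on log2(CPM + 1) with set means removed. Hepatocyte genes lie right of 0 for Apoa1 and left of 0 for Spp1, the biliary markers and Ccnd2 the reverse, and Hes1 lies nearest to 0 for Spp1.

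The marker score, the mean log2(TPM + 1) of the 6 markers, had an r of -0.815 with the plasma protein share (n = 70 cells, set means removed). It was -0.786 at E15.5 and -0.859 at E17.5. With the markers as log2(CPM + 1) and plasma protein reads taken out of the total, which changes both unit and total, it was -0.787. The marker score had positive r with the scores of tight junctions (0.754), basement membrane (0.749), keratins (0.713), cilium (0.697), YAP (0.637), Notch (0.585) and duct secretion genes (0.535). The keratin list holds Krt7 and Krt19, which are also among the 6 markers, so its r is in part of the same genes. With the cell cycle score its r was 0.120, with immediate early genes 0.158, with total reads -0.0808 and with detected genes 0.335. The spike-in share also moved with it, with an r of 0.519 for the marker score and -0.630 for the plasma protein share, so cells with fewer plasma protein reads had more spike-in reads per read. The part of RNA content per cell in these relations was not tested.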

How the data were processed

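Reads were aligned and counted by the authors; TopHat2 2.1.0, Bowtie2 and HTSeq 0.6.0 on GRCm38/mm10 are named per the submitters' processing notes, and whether the counting used strand is not given in the sources used here. The deposited files hold a raw read count per gene and cell, not normalised, and TPM, which the authors derived from these counts and which were recomputed here without the ERCC spike-ins. Per the labels' protocols, cells were picked by mouth pipette after sorting and amplified with 18 and then 8 cycles of PCR. Reads were summed over cells of a group with the same set number (42 of 46 sums from embryos, those of at least 2 cells). The test on these sums was edgeR 4.0.16 under R 4.3.3 (TMM, filterByExpr at a minimum count of 10, quasi-likelihood, 1 term per group of day, gate and type). Adjusted p is Benjamini-Hochberg over 16838 genes, called under 0.05. Set values were compared with two-sided exact permutation tests (scipy 1.17.1). Levels of sums are TMM-normalised CPM, levels of cells CPM of the gene total. Scores are means of log2(TPM + 1).

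Members, gene lists (30 lists, 432 genes) and naming rules were chosen with earlier results of these data known. Named genes are the markers, the 15 highest TPM, the 5 highest and up to 4 called members of each list, the 10 largest called rises and falls per comparison at 10 CPM or more without overlap, the 15 most variable and the extremes of the hepatocyte ratio. The text gives a selection, and a few genes are not reported here. Gene positions are from GENCODE M21 on GRCm38. Without molecular identifiers, intervals and floors cover counting error only.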

Additional observations from a re-analysis of the deposited data

Results flagged for a closer look

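The change from E15.5 to E17.5 in cholangiocytes minus that in DLK+ gate cells passed the test (edgeR quasi-likelihood interaction) for 30 named genes. All values are log2 differences, positive where cholangiocytes changed upward relative to DLK+ cells. Fitted values of genes with no reads on a side depend on the prior count. Both comparisons of days share these sums, so no flag here is independent of the results above. Of the 30 calls, 15 held when each of the 13 sets was left out in turn and 15 were lost without at least 1 set. With the set number within day as a replicate block, 26 of the 30 were lost, most of those that held here among them.

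The calls that held without any 1 set were negative for the plasma protein genes Apoa1 at -3.07, Apom at -2.01, Apoa2 at -1.82 and Afp at -1.62, for the cytochrome gene Cyp2c40 at -6.42 and for Acss1 at -2.19. Cyp2c40 stood at 218 ± 149 TPM (SD, n = 4 sets) in the E17.5 DLK+ sums and at 1.39 ± 0.958 TPM (SD, n = 6 sets) in cholangiocytes of both days. They were positive for Ccnd2 at 6.46, Flna at 5.89, the kinesin Kif12 at 1.93, the choline kinase Chka at 1.496, Tube1, which encodes epsilon-tubulin, at 8.27, the ubiquitin ligase Trim59 at 10.49, the channel Panx1 at 9.09, the proton pump subunit Atp6v0e2 at 8.56 and Aif1l at 8.52.

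Calls lost without 1 to 3 of the sets, each left out alone, were Pemt at -3.72 (E15.5 DLK+ set 1), G6pc at -13.32 (E15.5 DLK+ set 1 or 3), Cyp2c69 at -6.36 (E15.5 cholangiocyte set 2 or 4), Krt8 at 1.14 (E15.5 DLK+ set 3, E15.5 cholangiocyte set 4 or E17.5 cholangiocyte set 3) and Cyp2e1 at -7.19 (E15.5 DLK+ set 1, E15.5 cholangiocyte set 2 or E17.5 DLK+ set 2). Cyp2e1 ran from -8.12 to -2.52 over all alternatives. Calls lost without any one of 4 to 6 sets, the E15.5 DLK+ sets 1 and 3 among them for each gene, were Gpc4 at -11.14, Sds at -8.44, Saa3 at -8.25 and Cyp4a10 at -11.70. Calls lost without any one of 8 to 11 sets, again with the E15.5 DLK+ sets 1 and 3 among them, were Mcm3 at 2.02, Serpind1 at -1.31, Sgol1 at 6.33, Kif18a at 5.92, Akr1b7 at -4.93 and Slc6a12 at 6.91.

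Among the 4 E17.5 DLK+ sets, set 1 had 21.4% of cells with at least 10 cell cycle genes at 10 CPM. The other sets were at 0, where any value above 0 stands apart. At 1 CPM in place of 10 the sets 1 to 4 had 4 of 14, 3 of 8, 1 of 8 and 0 of 5 such cells, and set 1 was not apart.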

How the results depend on the processing

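Counts of called genes moved more than 1.5 times in these cases. Between the days of cholangiocytes (75), DESeq2 called 179, 72 of them shared, and the fit of only the groups compared 12. Against DLK+ cells (5247), library totals gave 7911. For the interaction (200), DESeq2 gave 556, library totals 685, and leaving out 1 set 85 to 290. Against E14.5 (379), DESeq2 gave 822, the fit of only the groups compared 21, and leaving out 1 set 252 to 368. Leaving out 1 set gave 51 to 75 between the days and 4567 to 5102 against DLK+ cells. Size factors of DESeq2, no filter on low counts and at least 5 cells per sum kept all 4 counts within 1.5 times. Library totals were added after seeing the data. They reversed the log2 difference from DLK+ cells of Ghr to 0.21, Gm20594 to 0.20, Prkcsh to 0.094, Slc2a2 to 0.19 and Slc9a3r1 to 0.13. The causes were not tested.

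The number of a set was also tried as a replicate block. It gave 76 genes between the days, 3414 against DLK+ cells (1586 higher and 1828 lower), 38 for the interaction and 321 against E14.5. Of the 30 named interaction calls it ended 26, leaving Apoa1, Panx1, Trim59 and Tube1. Sums of the same number had correlations of 0.0289 to 0.198 in their deviations, not all over 0.1. The E15.5 cholangiocyte sets 3 and 4 had 0.135 and 0.191 with the DLK+ set of their number. With other numbers they had at most -0.0529 and -0.0737. The E17.5 set 4 had 0.198 against at most -0.0370. Deviations from a group mean cancel over its sets, so a positive value with the own number lowers those with other numbers. These contrasts are therefore partly built in. Whether sets of the same number belong together was thus not settled, and the main fit treats them as unpaired. The E17.5 cholangiocyte sets 1 and 3 did not correlate best with the DLK+ set of their own number.

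The plasma protein share between the days stayed negative, from -6.71 to -2.47 percentage points without 1 set. The cell cycle share changed sign at 50 CPM (2.41) and with only 5 of the 20 genes required (0.463), and without 1 set ran from -11.3 to 3.70, with 2.5 without the E15.5 set 2. Of the 15 most variable genes, 12 were shared at a pseudocount of 10 and 5 with spread taken above the ERCC fit. Depth limits genes such as Sctr, with reads in 10 and 14 cells, where a missing read does not show absence.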

Other observations

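Of 10 tested genes of secreted defence, 3 were higher (6 on library totals) and 1 lower in cholangiocytes than in DLK+ cells, and 5 of the 12 listed reached 10 TPM, with a median of 2.03 TPM in cholangiocytes. Clu, the extracellular chaperone clusterin, stood at 2549 ± 831 TPM (SD, n = 6 sets), 2.53 higher than in DLK+ cells on the log2 scale. The complement gene C3 stood at 1136 ± 395 TPM, with a difference whose sign depends on the scaling (-0.26, and 0.43 on library totals). Cp, the copper carrier ceruloplasmin, stood at 201.3, 149 and 172 TPM at E15.5 and at 525, 472 and 737 TPM at E17.5, without overlap and without passing the test between the days (edgeR adjusted p = 0.54). Of 15 secreted signals tested, 6 were higher than in DLK+ cells and none lower. The alarmin Il33 had reads in 15 of 36 and 11 of 34 cells and the protease inhibitor Wfdc2 in 12 and 9, where a cell without a read may still hold the transcript. Reads of Fxyd2 were found in 30 of 36 cells at E15.5 and in 16 of 34 at E17.5, and those of Anxa13, an annexin of polarised epithelia, in 3 and 16. These counts of cells have no test.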
